A study of Mus musculus with 32 samples.

Results

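The 10 genes described here carry the growth hormone signal through the liver cell, or are well known targets of it: the receptors Ghr and Prlr, the kinase Jak2, the transcription factors Stat5a and Stat5b, the feedback inhibitors Socs2, Socs3 and Cish, and the targets Igf1 and Igfals. They were chosen by name, with earlier results of these data known, and all 10 were found among the 24197 genes of the authors' deposited table. The study asked how liver RNA responds when a microRNA is blocked by a locked nucleic acid oligonucleotide (LNA), a short antisense strand that pairs with the microRNA. All mice were of the outbred strain Crl:CD1(ICR), were 9 weeks old at the first dose and are listed as 10 weeks old, and received 2 injections of 25 mg/kg under the skin on days 0 and 1. Females received LNA-802, directed at miR-802-5p, or a scrambled LNA. Males received LNA-1948, directed at miR-1948-5p, or the same scrambled LNA. Livers were taken on day 3 or day 6 from 5 mice per anti-miR group and 3 mice per scrambled group, which makes 8 groups and 32 mice. Each anti-miR was given to 1 sex only, so the LNA and the sex of its recipients cannot be told apart, and each day has its own series of libraries in the sample titles.

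Growth hormone is released by the pituitary and binds GHR on hepatocytes, which activates JAK2. JAK2 phosphorylates STAT5A and STAT5B, which enter the nucleus and bind DNA at the core TTCNNNGAA, and the SOCS proteins that they induce shut the signal down. In rodents the hormone arrives in pulses in males and more steadily in females, and this difference sets much of the sex bias of liver genes, including many cytochrome P450 genes.

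The levels below are group means in FPKM (fragments scaled by transcript length and by library size), a unit that corrects for gene length and sequencing depth. The table gives 1 mean per group and no value per mouse, so the depth of each library is unknown and no error or number of replicates stands beside a mean. The FPKM of a group add up to a total of 198940 to 206757, and 9004 to 9327 genes per group are at 1 FPKM or above. The hepatocyte gene Alb ranges from 14069 to 22690 FPKM, and hepatocyte markers are the most abundant of the 7 marker lists in every group. Xist is at 33.7 to 36.9 FPKM in females and at most 0.0393 FPKM in males. The pituitary hormone genes Gh and Prl reach at most 0.0140 and 0 FPKM. The rows for the microRNA genes measure poly(A) RNA from those genes and not the mature microRNAs, so they do not check the knockdown.

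The sequences that define the LNA-802 treatment are shown with the seed of the microRNA, bases 2 to 8, in capitals, and with the complement of the seed in capitals in the LNA. The microRNA sequence is from RefSeq and maps to chr16:93369737-93369758 on the plus strand of GRCm38.p6.
miR-802-5p: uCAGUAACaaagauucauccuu
LNA-802: gaatctttGTTACTG
scrambled LNA: acgtctatacgccca
LNA-802 is complementary to bases 2 to 16 of the microRNA, which covers the seed. The 7-letter seed match GTTACTG was searched in the longest annotated 3′ untranslated region of each coding gene, on the transcript strand, in GENCODE M21 for GRCm38. It occurs in 8.97% of 20997 genes and in 1 of the 10 members, Prlr. The Prlr region is long, at 7742 bases against a median of 962 over these genes, so 8.97% is not a like background for it. The Prlr match lies at bases 4258 to 4264 of a 7742-base region, at chr15:10333512-10333533 on the plus strand with the flanking bases shown, where the capitals mark the match.
Prlr: cagctctgggcatGTTACTGct
A match is a string of letters and not a proven site. The Prlr group means are given with the receptors.

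The core TTCNNNGAA, whose letters read the same on both strands, was searched in RefSeq promoter windows of GRCm38.p6 that run from 250 bases before to 50 bases after a gene's start. Of 32851 windows, 8.3% hold it. It occurs in at least 1 window of 4 of the 9 members that have one, namely Cish, Socs3, Igfals and Prlr, against 9.55% of all genes with a window. Socs2 has no window. The 9 members have 16 windows and all 27025 genes have 32851. The members thus have more windows per gene, and 9.55% is not a like background for them. The lines that follow give the matches with the flanking bases in lower case, since they are where the letters of the STAT5 core stand near the starts of these genes. Cish has a pair of matches in the same window, which begin at bases 1 and 12 counted from its start, and 0.457% of all windows hold more than 1. Igfals has 1 match in each of 2 windows, and the one nearer to a start is given.
Cish, chr9:107296644-107296682, plus strand: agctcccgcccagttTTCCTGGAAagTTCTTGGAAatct
Socs3, chr11:117969497-117969535, minus strand: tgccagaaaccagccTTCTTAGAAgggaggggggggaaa
Igfals, chr17:24878158-24878196, plus strand: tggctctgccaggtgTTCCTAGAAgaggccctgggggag
Prlr, chr15:10223781-10223819, plus strand: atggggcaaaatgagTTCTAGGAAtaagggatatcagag
The windows of Ghr, Jak2, Stat5a, Stat5b and Igf1 hold no match, which says only that these letters are absent from these windows.

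In per-length terms the members spread over a wide range. The mean over the 8 groups was 79.0 FPKM for Igf1 and 1.00 FPKM for Socs3, with Prlr at 15.3 FPKM and Socs2 at 9.22 FPKM between them. Igf1, Ghr and Igfals held the 3 highest places among the 10 in all 8 groups, and Socs3 was the lowest in all 8. Igf1, which encodes the circulating growth factor made by the liver, lay between 73.4 and 84.0 FPKM. Jak2, the kinase of the pathway, lay between 2.04 and 2.36 FPKM, and Socs3 lay between 0.701 and 1.51 FPKM. With no values per mouse, it cannot be said which neighbours in this order differ beyond their spread.

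**Figure D1:**
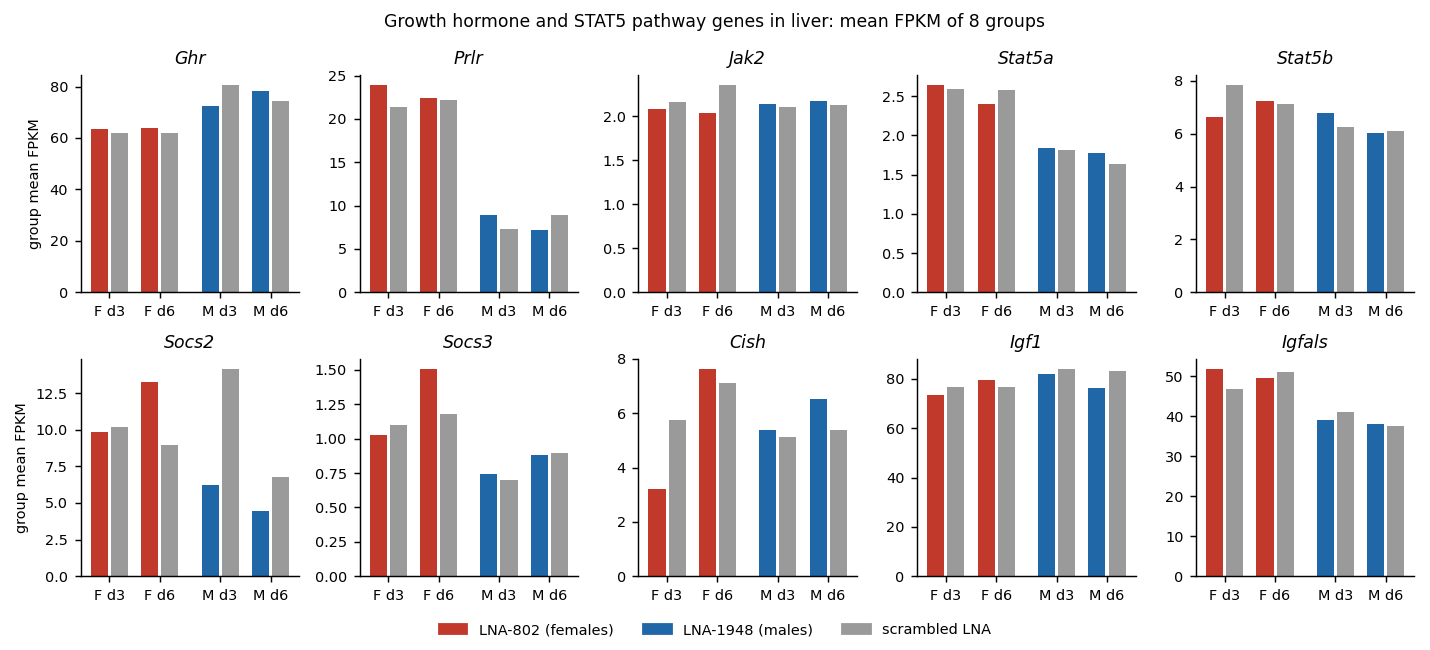
Group mean FPKM (bars, each axis from 0) of the 10 genes in females (F) and males (M) on day 3 (d3) and day 6 (d6), with each LNA group left of its scrambled group. Prlr is above 21 FPKM in the 4 female groups and below 9 FPKM in the 4 male groups, and Socs2 is highest in scrambled males on day 3, at 14.1 FPKM.

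Against scrambled LNA, 0 of the 10 members passed the authors' edgeR adjusted p under 0.05 in any of the 4 anti-miR comparisons. The same threshold was passed by 4 of 24197 genes (0.0165%) for LNA-802 on day 3, 82 genes (0.339%) for LNA-802 on day 6, 13 genes (0.0537%) for LNA-1948 on day 3 and 30 genes (0.124%) for LNA-1948 on day 6. At an unadjusted p under 0.05 the members passing were 2 of 10, 1 of 10, 1 of 9 and 1 of 9 in that order, counting those at 1 FPKM or more in either group. Of all genes at that level, 4.09%, 7.23%, 3.83% and 4.91% passed in the same comparisons. In the authors' deposited table the 10 members had a median log2 ratio of -0.09, 0.05, 0.02 and -0.05 across these comparisons, beside medians of 0.01, 0.01, -0.01 and 0.01 over genes at 1 FPKM or more.

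Among the receptors, Ghr, which binds growth hormone, had means that differed little between each anti-miR group and its scrambled group. Ghr averaged 63.5 FPKM in LNA-802 females and 61.9 FPKM in scrambled females on day 3, and 63.9 and 61.8 FPKM on day 6. In males it averaged 72.4 FPKM with LNA-1948 and 80.6 FPKM with scrambled LNA on day 3, and 78.1 and 74.3 FPKM on day 6. All 4 male means are above all 4 female means, and the share of all genes split by sex in this way was not counted. The deposited log2 ratios of Ghr, in the authors' deposited table, lie between -0.16 and 0.07 in the 4 anti-miR comparisons.

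Prlr encodes the prolactin receptor, a relative of GHR that also signals through JAK2 and STAT5. It lies at chr15:10106992-10278935 in mm9. It averaged 23.9 FPKM in LNA-802 females and 21.3 FPKM in scrambled females on day 3, and 22.5 and 22.2 FPKM on day 6. In males the order of the groups differed between the days, with 8.95 FPKM in LNA-1948 livers and 7.25 FPKM in scrambled livers on day 3, and 7.17 and 8.91 FPKM on day 6. The female means do not overlap the male means, and here too the share of all genes split in this way was not counted. The log2 ratio for LNA-802 in the authors' deposited table was 0.13 on day 3 and 0.03 on day 6, and neither passed (edgeR adjusted p = 1 on both days). For LNA-1948 the authors' deposited table gives log2 ratios of 0.30 on day 3 and -0.36 on day 6, with unadjusted p = 0.0556 and p = 0.0695.

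Jak2 showed means of 2.08 and 2.04 FPKM in LNA-802 females on days 3 and 6, against 2.16 and 2.36 FPKM in scrambled females. Its means in males were 2.14 and 2.17 FPKM with LNA-1948, against 2.11 and 2.13 FPKM with scrambled LNA. All 8 groups lie close together, and the largest log2 ratio by size in an anti-miR comparison of the authors' deposited table is -0.19, for LNA-802 on day 6.

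Stat5a and Stat5b lie side by side on chromosome 11 and encode near-identical proteins, so reads could have been divided between them by the authors' counting and single values carry that uncertainty. Stat5b was the more abundant of the pair in every group. It averaged 6.64 FPKM in LNA-802 females and 7.85 FPKM in scrambled females on day 3, and 7.24 and 7.14 FPKM on day 6. The day 3 log2 ratio in the authors' deposited table was -0.28, with unadjusted p = 0.0372 and edgeR adjusted p = 1, so it did not pass. In males Stat5b averaged 6.78 FPKM with LNA-1948 and 6.27 FPKM with scrambled LNA on day 3, and 6.03 and 6.10 FPKM on day 6. Stat5a ranged only from 2.41 to 2.64 FPKM over the 4 female groups and from 1.63 to 1.83 FPKM over the 4 male groups, and in the authors' deposited table its anti-miR log2 ratios lie between -0.08 and 0.07.

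Socs2, the feedback inhibitor that restrains growth hormone signalling in mice, was the member with the smallest p in 3 of the 4 anti-miR comparisons. It lies at chr10:94874123-94879491 in mm9, the build of the files. In males it averaged 6.22 FPKM with LNA-1948 and 14.1 FPKM with scrambled LNA on day 3. On day 6 the means were 4.46 FPKM with LNA-1948 and 6.77 FPKM with scrambled LNA. Both LNA-1948 means lie below both scrambled male means, with 6.22 and 6.77 FPKM the nearest pair. The share of all genes split in this way was not counted. The day 3 scrambled mean is the highest of all 8 groups. The authors' deposited table gives a ratio 2.30-fold lower with LNA-1948 on day 3, a log2 ratio of -1.20 with an approximate 95% interval of -1.80 to -0.59, derived from the authors' p. This ranked 21 of 24197 genes by p (unadjusted p = 0.000105) and missed the threshold (edgeR adjusted p = 0.118). On day 6 the value in the authors' deposited table was 1.57-fold lower, a log2 ratio of -0.65 with an interval of -1.05 to -0.25, and it also missed it (unadjusted p = 0.00158, edgeR adjusted p = 0.357). Adjusting the authors' p-values over genes at 1 FPKM or more only gave 0.0613 on day 3 and 0.184 on day 6.

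In females the Socs2 means were 9.82 FPKM with LNA-802 and 10.2 FPKM with scrambled LNA on day 3, which are nearly equal. On day 6 Socs2 averaged 13.3 FPKM with LNA-802 and 8.92 FPKM with scrambled LNA. The day 6 log2 ratio in the authors' deposited table was 0.59, with an interval of 0.11 to 1.06, an unadjusted p = 0.0147 and an edgeR adjusted p = 0.719. Whether the opposite signs in males and females differ was not tested, since the anti-miR and the sex differ together.

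Beside these values, the levels of cell type markers differ between the groups. Kupffer cell markers, genes of resident liver macrophages, summed to 80.1 FPKM in LNA-1948 males and 54.9 FPKM in scrambled males on day 3, with positive log2 ratios in 11 of the 11 markers at 1 FPKM and 0 of 12 past the threshold. On day 6 the male sums were 55.6 and 57.2 FPKM. In females they were 87.5 FPKM with LNA-802 and 94.8 FPKM with scrambled LNA on day 3, and 78.1 and 98.4 FPKM on day 6, with negative log2 ratios in 12 of 12 and 11 of 11 markers at 1 FPKM and 0 past the threshold on either day. Hepatocyte markers summed to 30426 FPKM in LNA-1948 males and 27060 FPKM in scrambled males on day 3, and to 25305 and 29962 FPKM on day 6. Of the hepatocyte markers, 6 of 10 had positive log2 ratios for LNA-1948 on day 3 and 0 of 10 on day 6. Sinusoidal endothelial markers had positive log2 ratios for LNA-1948 in 12 of 12 genes on day 3 (median 0.15) and in 5 of 12 on day 6 (median -0.01). Stellate cell and fibroblast markers were positive in 8 of the 9 at 1 FPKM on day 3 (median 0.19) and in 0 of 9 on day 6 (median -0.18), and none of these 3 lists had a gene past the threshold for LNA-1948. For LNA-802 the endothelial markers were positive in 6 of 12 on each day and the stellate markers in 6 and 4 of 8. Markers of T, NK and B cells summed to at most 1.997 FPKM and those of neutrophils to at most 1.88 FPKM in any group. The part of these markers in the Socs2 and Cish values was not tested, and in bulk liver RNA fewer cells of a type and less RNA per cell cannot be told apart.

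Cish, a SOCS relative that is a textbook STAT5 target, was the member with the largest difference in LNA-802 females on day 3. It lies at chr9:107199019-107204292 in mm9. It averaged 3.22 FPKM with LNA-802 and 5.76 FPKM with scrambled LNA on day 3, and 7.63 and 7.11 FPKM on day 6. The day 3 LNA-802 mean is the lowest of the 8 groups and the day 6 LNA-802 mean the highest. In the authors' deposited table the day 3 ratio was 1.84-fold lower, a log2 ratio of -0.88 with an interval of -1.60 to -0.16, and it did not pass (unadjusted p = 0.0173, edgeR adjusted p = 1). Cish averaged 5.39 FPKM with LNA-1948 and 5.14 FPKM with scrambled LNA in males on day 3, and 6.54 and 5.38 FPKM on day 6. The day 6 value is the least precise of the member values with an interval in the anti-miR comparisons, with an interval of -1.01 to 1.49 around the authors' deposited table's log2 ratio of 0.24.

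Socs3, which inhibits signalling through JAK2 and is better known as a target of STAT3, was near the 1 FPKM limit. In females it averaged 1.03 FPKM with LNA-802 and 1.10 FPKM with scrambled LNA on day 3, and 1.51 and 1.18 FPKM on day 6. In males all 4 means were under 1 FPKM, at 0.740 FPKM with LNA-1948 and 0.701 FPKM with scrambled LNA on day 3, and 0.879 and 0.898 FPKM on day 6. It is therefore left out of the counts at 1 FPKM for LNA-1948.

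Of the targets, Igf1 stayed within a narrow range. Its means were 73.4 FPKM in LNA-802 females and 76.6 FPKM in scrambled females on day 3, and 79.6 and 76.6 FPKM on day 6. In males they were 82.0 FPKM with LNA-1948 and 84.0 FPKM with scrambled LNA on day 3, and 76.5 and 83.1 FPKM on day 6. The log2 ratios in the authors' deposited table lie between -0.17 and 0.07, and no approximate 95% interval reaches past 0.44 in size. Igfals encodes the acid-labile subunit that keeps IGF1 in the blood. It averaged 51.8 FPKM with LNA-802 and 46.8 FPKM with scrambled LNA on day 3, and 49.7 and 51.2 FPKM on day 6, in females. The male means were 39.0 FPKM with LNA-1948 and 41.1 FPKM with scrambled LNA on day 3, and 38.1 and 37.5 FPKM on day 6. All 4 male means lie below all 4 female means, and the share of all genes split by sex in this way was not counted. Between scrambled males and females Igfals did not pass the threshold on either day. Its log2 ratios there were -0.17 on day 3 and -0.36 on day 6 in the authors' deposited table.

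**Figure D2:**
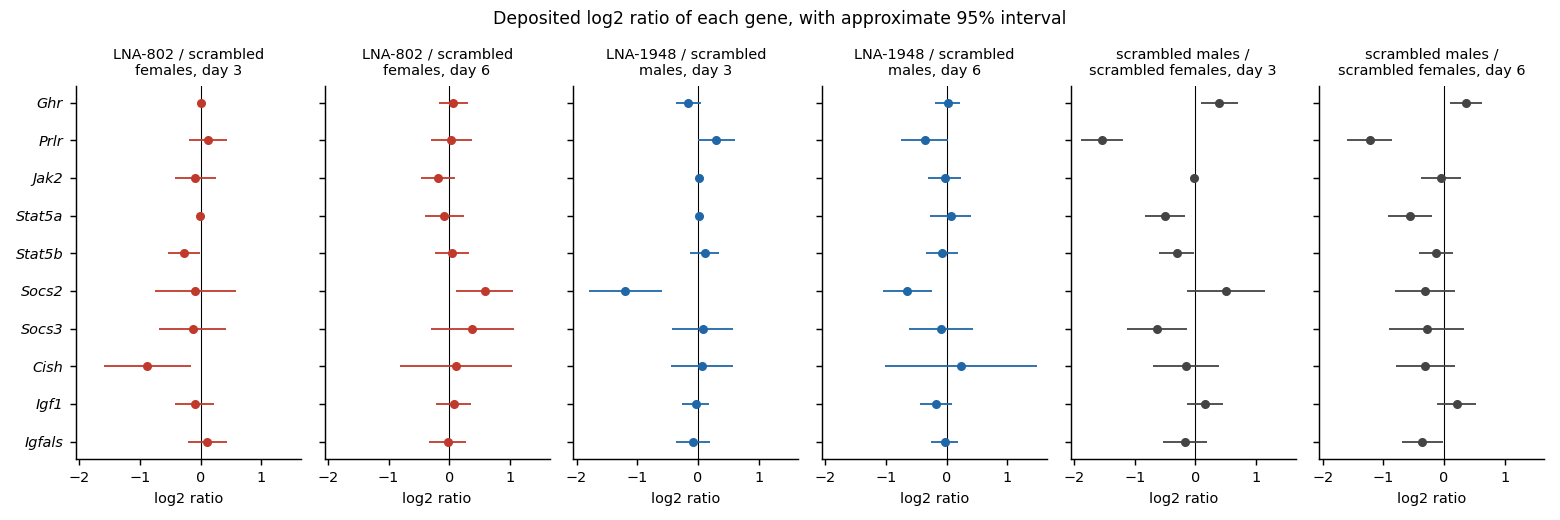
Log2 ratio of each gene in the authors' deposited table (points, horizontal axis) for the 4 anti-miR comparisons and for scrambled males over scrambled females. Bars are approximate 95% intervals derived from the unadjusted p and are not drawn at p of 0.9 or more. Socs2 lies at -1.20 for LNA-1948 on day 3, Cish at -0.88 for LNA-802 on day 3, and Prlr at -1.54 and -1.23 for scrambled males over females.

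The days were compared as a description, since the day goes with the library series. Between day 3 and day 6, the log2 change of the group mean was -1.05 for Socs2 in scrambled males, and only 0.953% of genes at 1 FPKM or more had a larger change in that group pair. The same change of Socs2 was -0.47 in LNA-1948 males, 0.43 in LNA-802 females and -0.19 in scrambled females. The highest Socs2 mean belongs to a group of 3 scrambled mice on day 3. For Cish the change was 1.22 in LNA-802 females, exceeded in size by 0.288% of genes, and 0.30 in scrambled females. In males the Cish change was 0.27 with LNA-1948 and 0.06 with scrambled LNA. Ghr and Igf1 changed by at most 0.12 on the log2 scale in each of the 4 pairs of days.

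The difference between the day 6 and the day 3 anti-miR effect was tested per gene by an approximate z test built from the authors' ratios and p-values. It called 7 of 9375 genes (0.0747%) for LNA-802 and 46 of 9119 genes (0.504%) for LNA-1948 at an adjusted p under 0.05, and 0 members in either. For Socs2 the day 6 minus day 3 difference was 0.68 with a standard error of 0.42 for LNA-802 (approximate z test of the authors' values, unadjusted p = 0.105) and 0.55 with a standard error of 0.37 for LNA-1948 (unadjusted p = 0.138). For Cish with LNA-802 it was 0.99 with a standard error of 0.60, from the authors' values (unadjusted p = 0.0991). Prlr had the smallest p among the members, with a difference of -0.66 and a standard error of 0.25 for LNA-1948 in this test of the authors' values (unadjusted p = 0.0091, adjusted p = 0.476).

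**Figure D3:**
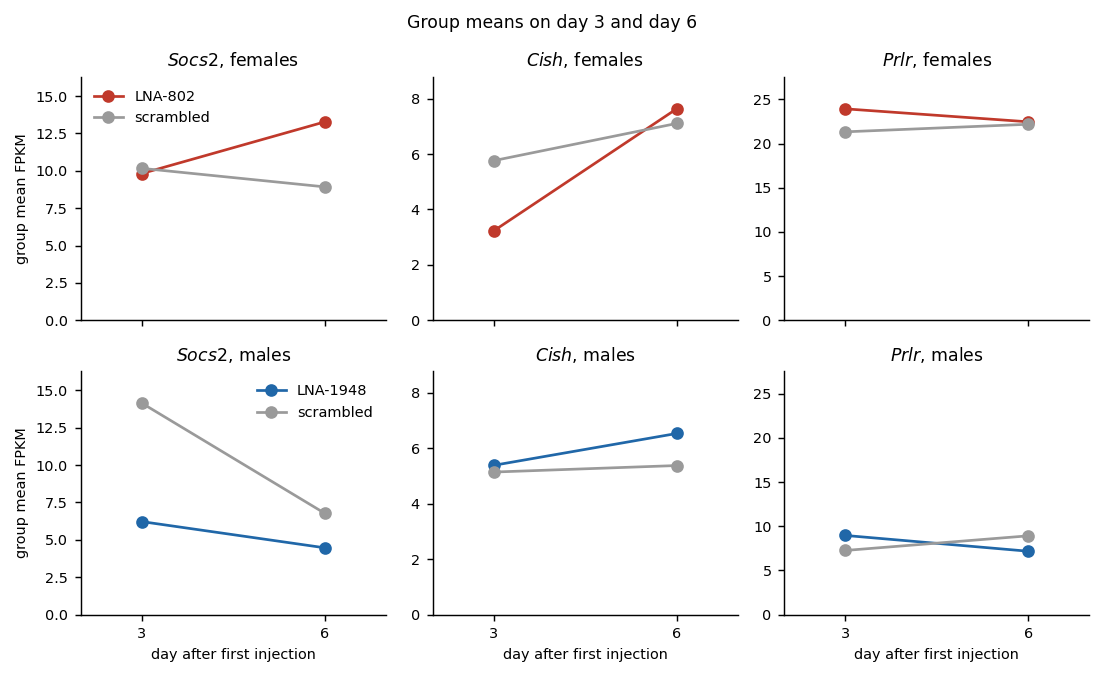
Group mean FPKM (vertical axes from 0) of Socs2, Cish and Prlr on day 3 and day 6 after the first injection, with females in the upper row and males in the lower row. Each point is 1 group mean without error. Socs2 in scrambled males is at 14.1 FPKM on day 3 and 6.77 FPKM on day 6, and Cish in LNA-802 females is at 3.22 and 7.63 FPKM.

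The scrambled mice also give a comparison of the sexes that holds no anti-miR. In it, Prlr was lower in males on both days, by the largest ratio among the members. The authors' deposited table gives Prlr 2.90-fold lower in scrambled males than in scrambled females on day 3 (log2 ratio -1.54, edgeR adjusted p = 1.69e-15) and 2.34-fold lower on day 6 (log2 ratio -1.23, edgeR adjusted p = 1.29e-08). Prlr was the only member past the threshold on either day taken alone, against 812 genes (3.36%) on day 3 and 1073 genes (4.43%) on day 6. At an unadjusted p under 0.05, 5 of 10 members passed on day 3 and 4 of 10 on day 6, beside 16.8% and 19.5% of genes at 1 FPKM or more.

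In the authors' deposited comparison of both days together, 3 members passed, beside 1890 genes (7.81%). Prlr was 2.59-fold lower in males there (edgeR adjusted p = 2.78e-20, authors' deposited table). Stat5a was 1.45-fold lower in males (edgeR adjusted p = 0.000162, authors' deposited table). On single days the authors' deposited table gives Stat5a log2 ratios of -0.51 and -0.57 with edgeR adjusted p = 0.0723 and edgeR adjusted p = 0.0505. Ghr was 1.30-fold higher in males (edgeR adjusted p = 0.000968, authors' deposited table), with 1.32-fold on day 3 and 1.28-fold on day 6 and edgeR adjusted p = 0.208 and edgeR adjusted p = 0.114 on the single days. The anti-miR groups, which differ in LNA as well as in sex, show the same order for Prlr, Stat5a and Ghr in their means and were not tested against each other. Jak2 had log2 ratios of -0.02 and -0.05 in this comparison of the authors' deposited table, and Igf1 0.15 and 0.21, with none past the threshold.

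Cell type markers differ between the sexes in the same mice. Kupffer cell markers summed to 54.9 FPKM in scrambled males and 94.8 FPKM in scrambled females on day 3, and to 57.2 and 98.4 FPKM on day 6, and 9 and 10 of the 12 passed as lower in males. Hepatocyte markers summed to 27060 FPKM in scrambled males and 34232 FPKM in scrambled females on day 3, and to 29962 and 31958 FPKM on day 6. Gene by gene they were mixed, with negative log2 ratios in 5 of 10 on day 3 (median -0.04, 0 past the threshold). On day 6 they were negative in 4 of 10 (median 0.19), and 2, Ttr and Serpina1c, passed as higher in males. Sinusoidal endothelial markers had negative log2 ratios, lower in males, in 12 of 12 genes on day 3 (median -0.26, 1 past the threshold) and in 11 of 12 on day 6 (median -0.23, 0 past it). Stellate cell and fibroblast markers were negative in 6 of the 8 at 1 FPKM on day 3 (median -0.26, 1 past the threshold) and in 6 of 9 on day 6 (median -0.07, 0 past it). The part of these lists in the Prlr, Stat5a and Ghr values was not tested.

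The rest of the pathway was described with 154 further genes in 9 lists. In the anti-miR comparisons the numbers past the threshold were 0 for LNA-802 on day 3, 8 (5.19%) for LNA-802 on day 6, 4 (2.6%) for LNA-1948 on day 3 and 6 (3.9%) for LNA-1948 on day 6. Over all genes the shares were 0.0165%, 0.339%, 0.0537% and 0.124% in that order. The lists were written with earlier results of these data known, so their higher shares may come in part from that choice. None of the anti-miR calls was in the lists of other JAK-STAT receptors and kinases (18 genes), other STAT genes (5), other SOCS genes and negative regulators (19), adaptors and effectors of growth hormone signalling (14) or the IGF system (13). At the shares over all genes, lists of these sizes would hold almost no call, so the absence of calls there is not a result about them. The calls lay in the sex-biased targets, the transcription factors and the acute phase genes. Between scrambled males and females 55 (35.7%) and 54 (35.1%) passed on days 3 and 6, beside 3.36% and 4.43% of all genes. The lists of sex-biased targets fix these counts in part, since their genes were listed for that bias.

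For LNA-802 on day 6, 2 of 18 male-biased targets were called higher than with scrambled LNA. Of 25 genes listed as female-biased targets, 2 were called lower and 1, Cyp4a14, higher. Cyp2d9 averaged 27.1 FPKM in LNA-802 females and 9.62 FPKM in scrambled females, and its log2 ratio in the authors' deposited table was 1.52 (edgeR adjusted p = 0.00803). Cyp4a12a was called higher as well, at 0.611 FPKM with LNA-802 and 0.0783 FPKM with scrambled LNA, both under 1 FPKM (edgeR adjusted p = 0.0299, authors' deposited table). Among the genes listed as female-biased, Cyp2a4 averaged 63.6 FPKM with LNA-802 and 127 FPKM with scrambled LNA (log2 ratio -0.98, edgeR adjusted p = 0.0218, authors' deposited table). Atp6v0d2 was called lower as well, at 3.26 FPKM with LNA-802 and 5.71 FPKM with scrambled LNA (edgeR adjusted p = 0.0199, authors' deposited table). Cyp4a14, a fatty acid hydroxylase also induced by PPARα, averaged 12.1 FPKM with LNA-802 and 1.51 FPKM with scrambled LNA (edgeR adjusted p = 0.031, authors' deposited table). These mice go against its listing, since on day 6 it averaged 17.2 FPKM in scrambled males and 1.51 FPKM in scrambled females and was called higher in males (edgeR adjusted p = 0.003, authors' deposited table). On day 3 Cyp4a14 averaged 11.9 FPKM in scrambled males and 18.7 FPKM in scrambled females, which did not pass (edgeR adjusted p = 1, authors' deposited table). The median log2 ratio over all listed genes was 0.41 for the 18 male-biased and -0.37 for the 25 female-biased targets on day 6, and 0.28 and 0.09 on day 3, when none passed. The scrambled female means of some of these genes differed between the days, and the day goes with the library series. They were 18.7 and 1.51 FPKM for Cyp4a14 on days 3 and 6, and 73.7 and 127 FPKM for Cyp2a4. For Cyp2d9 they were 10.1 and 9.62 FPKM, for Atp6v0d2 4.82 and 5.71 FPKM, and for Cyp4a12a 0.192 and 0.0783 FPKM. With LNA-802 on day 3, Cyp4a14 averaged 20.3 FPKM and Cyp2a4 85.7 FPKM. Single values of Cyp genes are uncertain, because reads of close copies could have been divided between them.

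Also for LNA-802 on day 6, the female-biased transcription factor Tox averaged 0.674 FPKM with LNA-802 and 1.32 FPKM with scrambled LNA, which was called lower (edgeR adjusted p = 0.0286, authors' deposited table). The acute phase genes Saa1 and Saa2, close copies of each other, were called lower, with 9.19 and 3.76 FPKM in LNA-802 females and 25.9 and 11.4 FPKM in scrambled females (edgeR adjusted p = 1.99e-05 and edgeR adjusted p = 3.59e-05, authors' deposited table). The other 19 of 21 acute phase and STAT3 target genes did not pass.

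For LNA-1948 the sex-biased targets had medians of opposite sign on the days. On day 3, 3 female-biased targets, Hao2 and Acot3 among them, were called higher and the male-biased Serpina12 lower. Hao2 averaged 7.95 FPKM with LNA-1948 and 2.04 FPKM with scrambled LNA (log2 ratio 1.95, edgeR adjusted p = 9.48e-05, authors' deposited table). Serpina12 averaged 3.96 FPKM with LNA-1948 and 9.82 FPKM with scrambled LNA (log2 ratio -1.32, edgeR adjusted p = 7.39e-08, authors' deposited table). On day 6, Hao2, Cyp3a41a, Cyp2b9, Abcd2 and Cyp2c40 were called lower and Cyp7b1, the male-biased oxysterol hydroxylase, higher. Hao2 averaged 1.52 FPKM with LNA-1948 and 8.90 FPKM with scrambled LNA there (log2 ratio -2.60, edgeR adjusted p = 0.0145, authors' deposited table). Cyp7b1 averaged 89.6 FPKM with LNA-1948 and 39.98 FPKM with scrambled LNA (log2 ratio 1.10, edgeR adjusted p = 0.00839, authors' deposited table). Over all 25 listed female-biased targets the median log2 ratio was 0.91 on day 3, with 22 positive, and -0.46 on day 6, with 9 positive. Many of these genes are scarce in males, so their ratios rest on low levels. Cyp3a41a on day 6 averaged 0.0420 FPKM with LNA-1948 and 1.14 FPKM with scrambled LNA. For Hao2 the scrambled mean itself differed between the days, at 2.04 and 8.90 FPKM, and the day goes with the library series. Over the 18 male-biased targets the median was -0.33 on day 3 and 0.25 on day 6. On neither day did any of the 10 members pass the threshold, which 0.0537% and 0.124% of all genes passed on days 3 and 6. At shares this small, the absence of a call among 10 genes does not show that they were unchanged.

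**Figure D4:**
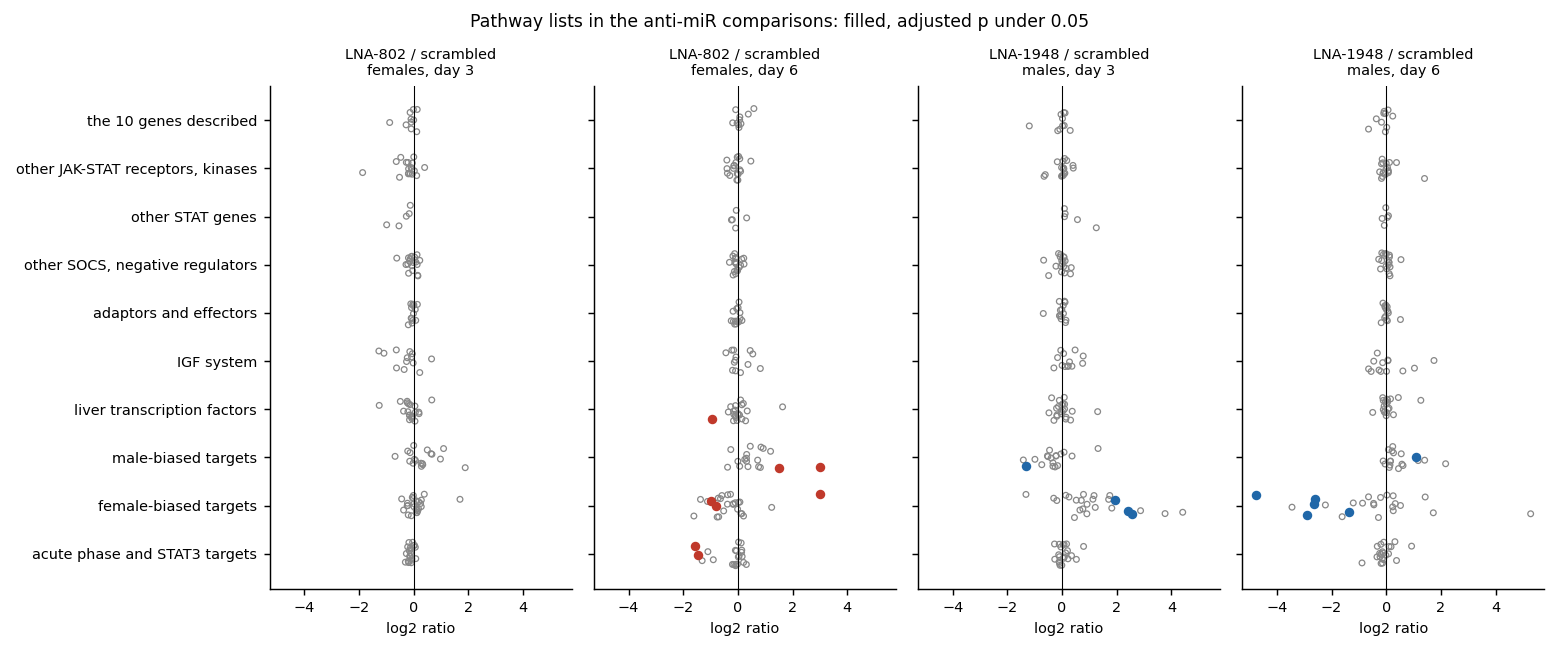
Log2 ratio in the authors' deposited table (horizontal axis) of the 10 members and of the genes of 9 further lists (rows, points spread vertically for sight) in the 4 anti-miR comparisons. Filled points passed an adjusted p under 0.05. The filled points, 0, 8, 4 and 6 in number, lie in the sex-biased targets, the liver transcription factors and the acute phase genes.

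Among the other transcription factors that growth hormone regulates, Cux2, a female-specific repressor of male-biased genes, averaged 1.76 FPKM with LNA-802 and 4.09 FPKM with scrambled LNA on day 3 (log2 ratio -1.26, edgeR adjusted p = 0.191, authors' deposited table). On day 6 it averaged 2.33 and 2.24 FPKM. Bcl6, a repressor that competes with STAT5 for its sites, averaged 5.62 FPKM with LNA-802 and 3.47 FPKM with scrambled LNA on day 3, and 4.33 and 1.42 FPKM on day 6. Its LNA-1948 means were 1.88 FPKM on day 3 and 5.15 FPKM on day 6, against 2.16 and 2.02 FPKM in scrambled males. None of these Bcl6 differences passed, with edgeR adjusted p of 0.613 for LNA-802 on day 6 and 1 elsewhere in the authors' deposited table. Onecut1, another liver transcription factor, averaged 4.72 FPKM with LNA-802 and 5.10 FPKM with scrambled LNA on day 3, and 10.1 FPKM with LNA-1948 and 13.97 FPKM with scrambled LNA in males on that day.

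Stat3, which carries interleukin-6 signals, averaged 10.9 FPKM with LNA-802 and 12.9 FPKM with scrambled LNA on day 3, and 11.3 and 12.1 FPKM on day 6. Of the 5 other STAT genes, 4 reached 1 FPKM, and 0 passed the threshold in an anti-miR comparison. All 4 had negative log2 ratios for LNA-802 on both days and positive ones for LNA-1948 on day 3. For LNA-1948 on day 6 there were 2 of each sign. Of the further pathway genes at 1 FPKM, 85 of 131 and 79 of 131 were negative for LNA-802 on days 3 and 6. For LNA-1948 on day 3, 65 of 122 were positive. The leptin receptor gene Lepr and the IGF receptor gene Igf1r, both scarce in hepatocytes, were at most at 0.453 and 0.219 FPKM in the 8 groups.

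The binding proteins that carry IGF1 gave no call in the anti-miR comparisons. Igfbp1 averaged 11.7 FPKM with LNA-802 and 17.7 FPKM with scrambled LNA on day 3, and 4.19 and 4.73 FPKM on day 6. Igfbp2 averaged 59.1 FPKM with LNA-802 and 73.5 FPKM with scrambled LNA on day 3, and 51.6 and 61.0 FPKM on day 6. Igfbp3 averaged 6.62 FPKM with LNA-802 and 4.60 FPKM with scrambled LNA on day 6 (log2 ratio 0.54, edgeR adjusted p = 0.296, authors' deposited table). In males on day 6, Igfbp2 averaged 51.6 FPKM with LNA-1948 and 32.1 FPKM with scrambled LNA (log2 ratio 0.61, edgeR adjusted p = 1, authors' deposited table).

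The genes most like 3 of the members were found from the correlation of log2(FPKM + 0.1) over the 8 group means, among 8614 genes at 1 FPKM or more in every group. The 8 means share libraries of 2 series and 2 sexes, and with so few points the values describe a ranking only. Socs2 was followed most closely by Tet2 (r = 0.95), Tmem128 (r = 0.94) and Rnf145 (r = 0.92). Igf1 was followed by Gm4788 (r = 0.97), Dyrk1b (r = 0.95) and Mpdu1 (r = 0.94). Prlr was followed by C3, Cyp2c37 and Npc2 (r = 0.99 each), which share its higher means in females.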

How the data were processed

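Per the labels' protocols, poly(A) RNA from the livers of 32 mice went into strand-specific libraries. The submitters' processing notes name mm9, TopHat2, featureCounts and edgeR, with no versions. Per the file headers, the authors deposited 1 table with the group mean in FPKM, the ratio between groups for 7 comparisons, and each ratio's p-value before and after adjustment. The deposited adjusted p-value equals a Benjamini-Hochberg adjustment over all 24197 genes, which was checked. Counts and values per mouse are not analysed here, so the planned count test was replaced by the authors' edgeR results. The deposited log2 ratio differs from that of the FPKM means by at most 0.0933 at the median of a comparison.

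The threshold was an adjusted p under 0.05. Approximate standard errors are the size of a log2 ratio over the normal quantile of its p. They served the intervals and a two-sided z test between days over genes with at least 1 FPKM (Python 3.11.15, SciPy 1.17.1). The z test was run on simulated data whose p-values had the normal form that it assumes. That run checks the calculation only, and not how well the test suits edgeR p-values from few mice. Replicates are taken as separate mice. The labels give each replicate its own animal number within its group, except in scrambled females on day 6. There all 3 titles repeat the same animal number and differ only in the code at their end. The members and the lists were chosen with earlier results of these data known. Named genes are the 10 members, 10 others named always, up to 4 called genes per list and comparison, smallest adjusted p first (Cyp2c40, the fifth of its list, was added after its values were seen), and the 3 genes most alike for Socs2, Igf1 and Prlr; some genes that this rule names are not reported here. The pooled comparison of the sexes was added after the table was seen. Alternatives were other thresholds, other adjustments and other pseudocounts.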

Additional observations from a re-analysis of the deposited data

How the results depend on the processing

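No paired analysis was possible because the table holds no values per mouse, and no mouse could be left out for the same reason. With an unadjusted p under 0.05 in place of the adjusted one, the members called numbered 2 and 1 for LNA-802 on days 3 and 6, 1 and 1 for LNA-1948, and 5 and 4 for scrambled males against females. The other pathway genes called in the 4 anti-miR comparisons were then 13, 29, 34 and 27 of 154, counted at any level. Of all genes at 1 FPKM or more, 4.09%, 7.23%, 3.83% and 4.91% passed there, a base that is not quite like. In the comparison of the sexes, 2 members (Prlr and Stat5a) were called on each day at an adjusted p under 0.1, 2 (the same) with adjustment over genes at 1 FPKM or more, and 3 (Ghr, Prlr and Stat5a) with both days pooled, an alternative chosen after the data were seen. Of 120 recomputed log2 ratios, 112 moved by less than 0.1. The sign changed in 8, for Ghr and Stat5a (LNA-802, day 3) and Jak2 and Igfals (LNA-1948, day 6), all within 0.04 of 0. Of 80 recomputed day 6 to day 3 ratios, 76 moved by less than 0.1 and none changed sign. The difference between days called 0 members in both adjustments. The p-values cover the spread between the mice of a group as the authors modelled it, with only 3 scrambled mice in each group.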
